A study of Rattus norvegicus with 82 samples.

Results

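Chemokines are small secreted proteins that guide white blood cells, and their receptors are the surface proteins that read them. The genes described here are the 45 chemokine and chemokine receptor genes that the array measured, of 14217 genes with a probe set of their own. They were chosen by symbol: Ccl, Cxcl, Xcl, Ccr, Cxcr or Ackr followed by a number, and the Cx3c and Xc members Cx3cl1, Cx3cr1 and Xcr1. The rule uses the symbols only. A gene with several probe sets is represented by the brightest of them. Of the 45 genes, 35 were bright enough to be tested among 11319 genes, which means above the 40th percentile of the array on at least 5 arrays. Of these, Ccl7, Ccl20, Ccl24, Ccr1, Ccr3, Ccr10, Cxcl1, Cxcl2, Cxcl13 and Cxcl14 stood above it on a minority of arrays, and a gene bright only in treated hearts could pass, so counts over the tested members are descriptions. The other 10 were dim and are named further on.

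The hearts came from male rats of the Wistar strain Crl:Wi(Han), each given 1 intravenous injection. The saline groups received 0.9% saline, the vehicle of all compounds. Vinblastine was injected at 0.5 or 3 mg/kg, vincristine at 0.1 or 1 mg/kg and colchicine at 0.2 or 2 mg/kg, and hearts were taken 6 or 24 h later. Each of the 14 groups held 6 animals with 1 array each, except the vincristine 0.1 mg/kg groups at 6 and 24 h with 5 each. All 3 compounds bind tubulin, the building block of microtubules. Vinblastine and vincristine are closely related vinca alkaloids: vincristine carries a formyl group where vinblastine carries a methyl group on the vindoline nitrogen. Colchicine is an alkaloid of another structural class. The doses differ between compounds, so values of different compounds stand side by side and were not tested against each other.

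Ligands of the CXC class with the ELR motif, such as Cxcl1 and Cxcl2, draw neutrophils, and Ccl2 and Ccl7 draw monocytes through Ccr2. Cxcl9, Cxcl10 and Cxcl11 are induced by interferons and draw activated T cells through Cxcr3, while Cxcl12 acts through Cxcr4 to hold and home cells. Atypical receptors of the Ackr family bind chemokines without signalling through G proteins, and clear or carry them. In the heart, endothelial cells, fibroblasts and resident macrophages are known sources of chemokines after injury.

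The deposited values were intensities on a linear scale, from 9.76 to 39497, and the median per array lay between 57.6 and 63.3. The number of arrays limits the precision. Cardiomyocyte markers were bright on every array (7 genes, summed intensity 117750 to 157530). For 10 arrays the profile over all genes tested lay closer to another group's median than to that of the labelled group. Only ratios of distances over 1.3 were counted, and theirs were 1.41 to 3.20. Among the 6 h groups, colchicine had replicates 1 and 6 of 0.2 mg/kg and replicate 4 of 2 mg/kg, vincristine had replicate 3 of 1 mg/kg, and vinblastine had replicate 6 of 0.5 mg/kg and replicate 1 of 3 mg/kg. Among the 24 h groups, colchicine had replicate 6 of 0.2 mg/kg and replicate 1 of 2 mg/kg, vincristine had replicate 5 of 0.1 mg/kg, and vinblastine had replicate 5 of 0.5 mg/kg. The array labelled vinblastine 3 mg/kg 6 h replicate 1 lay nearest the colchicine 2 mg/kg 24 h group, and the array labelled colchicine 2 mg/kg 24 h replicate 1 lay nearest the colchicine 0.2 mg/kg 24 h group. All values keep the labels. Calls of members that were lost or gained without the 10 arrays, an alternative chosen after seeing the data, are given beside each member or comparison. The marker lists and other gene lists are given over all arrays only. Nothing in the labels ties the animals to litters or days. The p values therefore set each change against the spread between these samples only. That spread was 1 estimate per gene shared by all groups, also where groups differed in spread. Leaving out the 10 arrays, which were picked for lying apart, changed this estimate for every comparison. None of the 10 was a saline array or an array of vincristine 1 mg/kg or vinblastine 3 mg/kg at 24 h. Changes of those groups against saline stayed the same and only the p values moved. Calls gained there are no added evidence from those hearts.

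At 6 h after vinblastine 3 mg/kg, 13 of the 35 tested members rose against saline and 4 fell (48.6%), where 23.3% of all genes tested passed an adjusted p of 0.05. Adjusted p values are those of limma after the Benjamini-Hochberg correction over all genes tested. The members that rose were the ligands Ccl2, Ccl7, Ccl3, Ccl4, Ccl5, Ccl17, Ccl20, Cxcl1, Cxcl2, Cxcl10, Cxcl16 and Cx3cl1 and the atypical receptor Ackr1. Those that fell were Cxcr4, Ackr2, Ccl24 and Xcl1. Over the 35 tested members the median log2 change was 0.23, against 0.01 over all genes. Values of 8 members did not overlap between the groups, and the same held for 7.13% of all genes tested. With the 10 arrays left out, 9 rose and 1 fell (15.8% of all genes).

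At the same time vincristine 1 mg/kg moved 2 members, with Ccl2 higher and Cxcr4 lower (5.71% of members, 3.3% of all genes). Colchicine 2 mg/kg moved 7 at 6 h (20% against 9.27%): Ccl2, Cxcl1, Cxcl2 and Ccl17 rose, and Cxcr4, Ccl24 and Xcl1 fell. Without the 10 arrays these counts were 6 up and 1 down for vincristine (12.3% of all genes) and 7 up and 4 down for colchicine (19.3%). Groups did not overlap for 0 members with vincristine (1.11% of all genes) and 1 with colchicine (1.3%). The members' share of calls with vincristine thus lay near that of all genes.

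Over all arrays the order of the compounds by number of calls was another one at 24 h. Colchicine 2 mg/kg moved 20 members, 12 up and 8 down (57.1%, beside 44.6% of all genes). Up were Ccl2, Ccl7, Ccl3, Ccl20, Ccl27, Cxcl1, Cxcl2, Cxcl10, Cxcl16, Ccr1, Ackr1 and Ackr3, and down were Cxcl12, Cxcr4, Ccl21, Ccl24, Ccl5, Cxcl9, Cxcl11 and Xcl1. Vincristine 1 mg/kg moved 12 (34.3%, beside 30.4%), with Ccl2, Ccl6, Ccl7, Cxcl10, Cxcl16, Ccr1 and Ackr1 up and Cxcl12, Cxcr4, Ccl24, Ccr10 and Xcl1 down. Vinblastine 3 mg/kg moved Cxcr4 alone (2.86%, beside 9.58%). Values did not overlap with saline for 6, 7 and 1 members, in the order colchicine, vincristine, vinblastine, beside 8.61%, 20.1% and 6.3% of all genes. For vincristine the members' counts lay near those of all genes, and for vinblastine below them. The counts without the 10 arrays were 13 up and 8 down (50.6% of all genes), 11 up and 5 down (34.9%), and 2 up and 2 down (15.8%). Colchicine then had the most calls at both times, at 6 h with 11 beside 10 for vinblastine and 7 for vincristine. The order of the compounds was not tested.

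No member passed at any lower dose, at either time, in limma. Vinblastine 0.5 mg/kg had 6 members under an unadjusted p of 0.05 at 6 h and 1 at 24 h, vincristine 0.1 mg/kg had 3 and 2, and colchicine 0.2 mg/kg had 0 and 1. Of all 11319 genes tested, 591 and 227, 441 and 316, and 757 and 289 lay under it in the same order. Of all genes, 0.0353% passed with vinblastine and 0.274% with colchicine at 6 h, and 0% in the other lower-dose comparisons. Saline at 24 h against saline at 6 h moved 0 members (0.00883% of all genes). At an unadjusted p under 0.05 there were 4 members, beside 1426 of 11319 genes, and Ccl21 had the lowest p of the members (adjusted p = 0.2). The comparisons of 1 time share their saline animals, so their changes are not independent of each other.

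**Figure D1:**
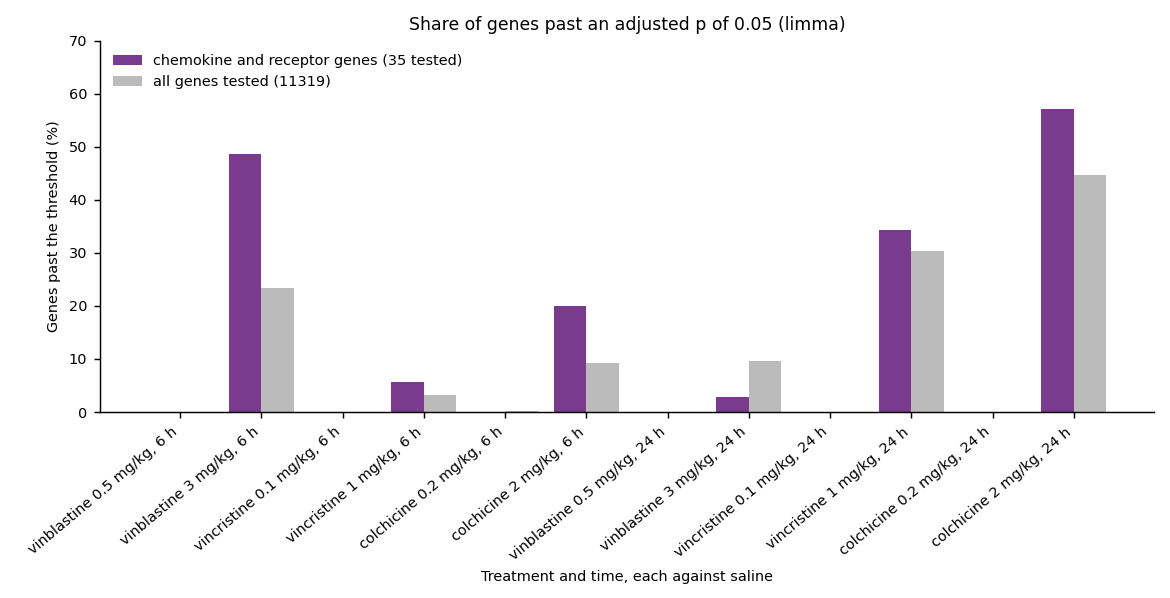
Share (%) of the 35 chemokine and receptor genes tested (purple bars) and of all 11319 genes tested (grey bars) past an adjusted p of 0.05 in limma, for each treatment and time against saline. The purple bar reaches 48.6 for vinblastine 3 mg/kg at 6 h and 57.1 for colchicine 2 mg/kg at 24 h, and is 0 at every lower dose.

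Promoter sequences are shown for 6 members with calls at the higher doses, because NF-kappaB is a known inducer of several chemokines. The 4 shown that rose were picked for holding an NF-kappaB match, and the 2 that fell hold none. Each sequence is the 250 bases before the gene's start in RefSeq (build GRCr8), 5′ to 3′ on the gene's strand, and capitals mark matches to the NF-kappaB consensus on either strand. Such a sequence was at hand here for 35 of the 45 members and for 10 of the 12 members with the lowest adjusted p against saline. Ccl2 and Ackr1 were the ones without it. Of those 10, 4 hold a match, and Ackr3, Ccl27, Cx3cl1 and Cxcl16, which rose as well, hold none and are not printed. Cxcl1 lies at chr14:17479322-17479571, minus strand, Cxcl2 at chr14:17467256-17467505, minus strand, Ccl7 at chr10:67513845-67514094, plus strand and Cxcl10 at chr14:15988816-15989065, plus strand. Cxcl12 lies at chr4:152060531-152060780, plus strand and Cxcr4 at chr13:42634289-42634538, minus strand.

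Cxcl1: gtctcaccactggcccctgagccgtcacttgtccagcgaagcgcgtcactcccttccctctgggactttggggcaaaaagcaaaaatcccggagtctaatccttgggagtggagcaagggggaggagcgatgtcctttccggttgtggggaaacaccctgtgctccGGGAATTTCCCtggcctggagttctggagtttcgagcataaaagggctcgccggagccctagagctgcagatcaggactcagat
Cxcl2: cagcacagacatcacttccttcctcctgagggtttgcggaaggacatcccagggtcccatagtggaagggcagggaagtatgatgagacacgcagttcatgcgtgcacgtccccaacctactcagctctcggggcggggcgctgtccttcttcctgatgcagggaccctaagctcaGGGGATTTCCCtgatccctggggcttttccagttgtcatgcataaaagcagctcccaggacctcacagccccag
Ccl7: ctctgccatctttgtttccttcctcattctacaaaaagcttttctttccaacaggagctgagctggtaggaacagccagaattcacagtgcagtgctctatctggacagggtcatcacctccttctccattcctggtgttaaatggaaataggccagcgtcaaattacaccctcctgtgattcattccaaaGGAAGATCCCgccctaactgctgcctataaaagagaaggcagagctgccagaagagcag
Cxcl10: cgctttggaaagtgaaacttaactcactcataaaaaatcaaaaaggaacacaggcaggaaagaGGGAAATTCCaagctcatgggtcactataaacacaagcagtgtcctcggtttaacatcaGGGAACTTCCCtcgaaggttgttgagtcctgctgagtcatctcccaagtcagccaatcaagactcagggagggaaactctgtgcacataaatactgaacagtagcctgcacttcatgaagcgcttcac
Cxcl12: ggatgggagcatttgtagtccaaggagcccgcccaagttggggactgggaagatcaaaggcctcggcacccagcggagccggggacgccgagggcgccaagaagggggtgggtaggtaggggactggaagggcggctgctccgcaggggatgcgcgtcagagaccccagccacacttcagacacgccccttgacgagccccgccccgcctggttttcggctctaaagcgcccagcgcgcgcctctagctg
Cxcr4: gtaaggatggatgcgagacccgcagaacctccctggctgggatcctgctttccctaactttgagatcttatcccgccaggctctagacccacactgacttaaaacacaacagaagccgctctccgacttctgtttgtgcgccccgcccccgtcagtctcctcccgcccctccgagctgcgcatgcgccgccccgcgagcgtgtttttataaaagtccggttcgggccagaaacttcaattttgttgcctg

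Counted from the start, matches in Cxcl1 ran from -84 to -75 and, on the other strand, from -83 to -74. In Cxcl2 they ran from -74 to -65 and, on both strands, from -73 to -64. Ccl7 had 1 match on the opposite strand, from -59 to -50. Cxcl10 had matches from -187 to -178 and from -128 to -119, the latter overlapped on the other strand from -127 to -118. The windows of Cxcl12 and Cxcr4 held no match. Over members, 9 of 35 windows held the consensus (25.71%): Ccl20, Ccl7, Ccl9, Ccr3, Cxcl1, Cxcl10, Cxcl11, Cxcl2 and Cxcl6. Over all 33469 windows of that length in the table the share was 6.33%. Of these 9 genes Cxcl11 fell at 24 h, Ccr3 passed in no comparison against saline, and Ccl9 and Cxcl6 were dim.

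The interferon-stimulated response element, searched on both strands as GAAANNGAAA, was in Ccl19 and Cxcl10 (5.71% of members, 3.41% of all windows), in Cxcl10 from -243 to -234. The AP-1 site TGANTCA was in Ccl7, Ccr3, Cxcl10, Cxcl11 and Cxcl14 (14.29%, beside 6.34%). The TATA box, as TATAAA, was in 10 member windows (28.57%, beside 12.93%). In the 6 windows printed, no match to one of these motifs overlapped a match to another. A match is a description of the letters only.

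Cxcl1 and Cxcl2, the ligands of Cxcr2 that draw neutrophils, rose at the higher doses of vinblastine and colchicine. Cxcl1 had a lowest, median and highest intensity of 27.3, 31.2 and 37.5 in saline hearts at 6 h, and of 43.6, 67.6 and 328 with vinblastine 3 mg/kg (32.3 ± 3.77 and 109 ± 109, mean ± SD, n = 6 each). Every vinblastine heart lay above every saline heart, and replicate 1 stood far above the rest. The change was 1.07 ± 0.31, adjusted p = 0.00778 (log2 of intensity plus 16, ± SE, as for all changes given here). Without replicate 1 the call was lost (0.71, adjusted p = 0.104). Without the 10 arrays the same hearts were compared, and the same change passed (0.71, adjusted p = 0.0329) with another estimate of the spread. After colchicine 2 mg/kg at 6 h the values were 31.1, 80.0 and 421, with replicate 2 highest and the lowest animal among the saline values (1.14 ± 0.31, adjusted p = 0.00931; 0.73 and 0.104 without replicate 2).

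At 24 h Cxcl1 was at 27.2, 31.5 and 41.0 in saline and 40.6, 105 and 573 with colchicine 2 mg/kg, where 1 animal reached into the saline range (1.54 ± 0.31, adjusted p = 2.61e-05). It stayed short of the threshold with vincristine 1 mg/kg at both times (0.60 ± 0.31, adjusted p = 0.283 at 6 h and 0.45 ± 0.31, adjusted p = 0.289 at 24 h), and without the 10 arrays it passed at 6 h (0.74, adjusted p = 0.0328). Its values with vinblastine 3 mg/kg at 24 h were 29.1, 33.9 and 36.8, inside those of saline.

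Cxcl2 was dim in saline, at 21.3, 22.7 and 28.1 at 6 h and 21.0, 23.4 and 24.5 at 24 h, below the brightness filter. With vinblastine 3 mg/kg at 6 h it was at 33.4, 38.2 and 213, with no overlap and replicate 1 more than any other (0.82 ± 0.20, adjusted p = 0.00125). Leaving out replicate 1 gave 0.48 with an adjusted p of 0.0303. With vincristine 1 mg/kg the change was 0.29 ± 0.20, adjusted p = 0.44 at 6 h and 0.34 ± 0.20, adjusted p = 0.187 at 24 h, both short of the threshold, and both passed without the 10 arrays (0.36, adjusted p = 0.0202, and 0.34, adjusted p = 0.00766). Colchicine 2 mg/kg gave 22.2, 41.5 and 87.3 at 6 h (0.63 ± 0.20, adjusted p = 0.0271) and 26.1, 66.0 and 112 at 24 h (1.03 ± 0.20, adjusted p = 1.15e-05). The 24 h values did not overlap with saline, and the 6 h values did. The 6 h call was lost without colchicine replicate 2 (adjusted p = 0.136) or replicate 5 (0.084). Cxcl3, the third ligand of this kind, had a group mean of 126 to 137 in every group and passed nowhere, and its 5 probe sets passed in no comparison against saline. Cxcl6 was dim.

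Neutrophil markers were measured beside these ligands. S100a9, one of the most abundant neutrophil proteins, rose from 59.0 ± 25.2 to 922 ± 208 with vinblastine 3 mg/kg at 6 h, and 4 of 5 tested markers passed there. With colchicine 2 mg/kg 3 rose at each time. With vincristine 1 mg/kg, where neither ligand was called over all arrays, S100a9 rose at 6 h (log2 change 2.11 ± 0.53, adjusted p = 0.0155), and at 24 h S100a9 (log2 change 2.24 ± 0.53, adjusted p = 0.000695), S100a8 (log2 change 0.82 ± 0.32, adjusted p = 0.0407) and Lcn2 (log2 change 2.38 ± 0.41, adjusted p = 5.51e-06) rose. None passed with vinblastine at 24 h. The summed intensity of the 8 markers measured of 15 listed was 429 to 537 in saline at 6 h, 1544 to 8289 with vinblastine 3 mg/kg, 428 to 1866 with colchicine 2 mg/kg and 432 to 1597 with vincristine 1 mg/kg. At 24 h it was 411 to 523 in saline, 549 to 7582 with colchicine, 1311 to 2302 with vincristine and 592 to 830 with vinblastine. Lcn2 was the brightest of the 8 over all arrays (mean 689) and weighed heavily in these sums. It was at 1670 ± 2728 with vinblastine at 6 h and 3806 ± 2248 with colchicine at 24 h, beside 922 ± 208 and 354 ± 146 for S100a9. Csf3r, Mmp8 and Mmp9 did not pass the brightness filter. The part of these cells in the ligand values was not tested. In whole-heart RNA, fewer or more cells of a type and less or more RNA per cell cannot be told apart.

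Ccl2, which draws monocytes through Ccr2, rose in 5 of 6 higher-dose groups and had the largest change of any member. Saline hearts gave 46.2, 57.5 and 86.5 at 6 h (61.6 ± 14.3) and 49.4, 62.5 and 80.4 at 24 h (62.6 ± 11.9). Vinblastine 3 mg/kg gave 127, 247 and 975 at 6 h (362 ± 311), all above saline (2.00 ± 0.35, adjusted p = 3.65e-05). At 24 h the same dose gave 54.1, 73.7 and 133 and missed the threshold (0.27 ± 0.35, adjusted p = 0.73). Vincristine 1 mg/kg gave 83.9, 187 and 299 at 6 h (1.27 ± 0.35, adjusted p = 0.0293) and 204, 207 and 374 at 24 h (1.67 ± 0.35, adjusted p = 0.000157). Its 24 h values lay clear of saline, and its lowest 6 h value did not.

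Colchicine 2 mg/kg gave Ccl2 values of 73.9, 151 and 958 at 6 h (1.42 ± 0.35, adjusted p = 0.00464) and of 109, 287 and 560.1 at 24 h (1.94 ± 0.35, adjusted p = 4.81e-06). Replicate 2 was highest by far at 6 h, and without it the adjusted p was 0.0559. The groups overlapped at 6 h and not at 24 h. The vincristine 6 h call was lost without saline replicate 3 (adjusted p = 0.0618) or 6 (0.0691), and without vincristine replicate 2 (0.0575), 4 (0.101), 5 (0.11) or 6 (0.0637). Without the 10 arrays the change was 1.66, adjusted p = 6.16e-06 for vinblastine at 6 h, 1.44, adjusted p = 0.00012 for vincristine at 6 h and 2.20, adjusted p = 7.51e-10 for colchicine at 24 h.

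Ccl7, the neighbour of Ccl2 on chromosome 10 and a ligand of the same receptor, was dim in saline (31.0, 34.2 and 36.5 at 6 h, 28.9, 33.9 and 37.0 at 24 h). It reached 42.4, 68.0 and 101 with vinblastine 3 mg/kg at 6 h (0.73 ± 0.17, adjusted p = 0.000747), 57.6, 73.1 and 84.7 with vincristine 1 mg/kg at 24 h (0.84 ± 0.17, adjusted p = 4.99e-05) and 42.6, 68.5 and 120.3 with colchicine 2 mg/kg at 24 h (0.79 ± 0.17, adjusted p = 5.17e-05). All 3 groups lay wholly above saline. The other higher-dose values were short of the threshold, from 0.27 ± 0.17, adjusted p = 0.362 with vinblastine at 24 h to 0.29 ± 0.17, adjusted p = 0.308 with colchicine at 6 h, which passed without the 10 arrays (0.37, adjusted p = 0.043). Ccl11, next to Ccl7, and the receptor Ccr2 were dim in all groups.

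**Figure D2:**
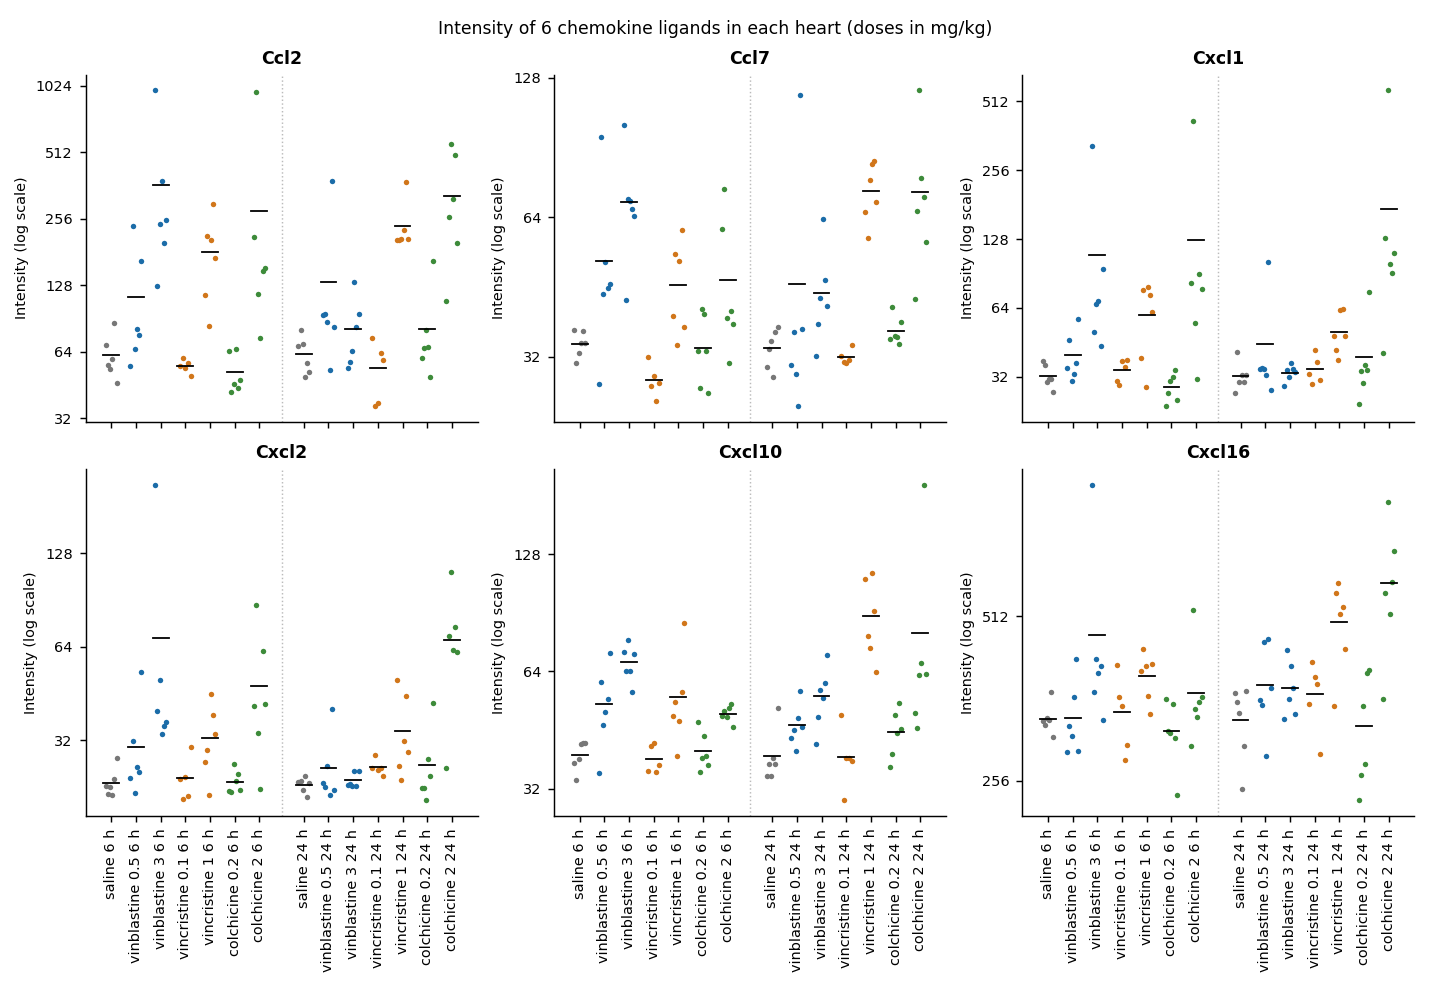
Intensity (log axis) of Ccl2, Ccl7, Cxcl1, Cxcl2, Cxcl10 and Cxcl16 in each heart, with 1 point per animal and a bar at the arithmetic mean of the group, for saline (grey), vinblastine (blue), vincristine (orange) and colchicine (green) at 6 and 24 h. Ccl2 reaches 975 with vinblastine 3 mg/kg at 6 h and 560.1 with colchicine 2 mg/kg at 24 h, while the saline hearts lie between 46.2 and 86.5.

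Ccl3 and Ccl4, ligands made by macrophages, rose by less. Ccl3 went from 59.3 ± 7.19 to 83.1 ± 21.0 with vinblastine 3 mg/kg at 6 h (0.38 ± 0.11, adjusted p = 0.00731), lost without replicate 1 of that group (adjusted p = 0.0798) and without the 10 arrays (0.0677). It was 58.2 ± 2.61 in saline and 81.8 ± 30.3 with colchicine 2 mg/kg at 24 h (0.35 ± 0.11, adjusted p = 0.00529), with no overlap, and lost without colchicine replicate 3 (0.091). It passed with colchicine at 6 h too when the 10 arrays were left out (0.34, adjusted p = 0.0162). Ccl4 rose from 67.9 ± 6.45 to 95.1 ± 17.0 with vinblastine 3 mg/kg at 6 h (0.40 ± 0.11, adjusted p = 0.00774) and in no other comparison with saline when all arrays were used. With the 10 arrays left out Ccl4 passed, higher, with vincristine 1 mg/kg at 6 h (0.37, adjusted p = 0.0118) and with colchicine 2 mg/kg at 6 h (0.31, adjusted p = 0.0277) and 24 h (0.26, adjusted p = 0.0302). Ccl20, the ligand of Ccr6, rose from 23.3 ± 2.6 to 46.3 ± 42.0 in the same comparison (0.48 ± 0.17, adjusted p = 0.0307) and from 22.1 ± 1.68 to 47.4 ± 36.3 with colchicine at 24 h (0.58 ± 0.17, adjusted p = 0.0036). It stood above the filter on 6 of 82 arrays, and its calls were lost without vinblastine replicate 1 (0.415) or colchicine replicate 4 (0.069), and the first also without saline replicate 1 (0.0561) or 4 (0.0526). Ccl20 lost the vinblastine call without the 10 arrays (0.401) and then passed with vincristine 1 mg/kg at 24 h (0.39, adjusted p = 0.0177).

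Ccl5, a ligand of T cells and monocytes, was the member that passed in both directions. It went from 208 ± 22.7 to 259 ± 49.0 with vinblastine 3 mg/kg at 6 h (0.29 ± 0.10, adjusted p = 0.0329) and from 227 ± 20.4 to 186 ± 21.2 with colchicine 2 mg/kg at 24 h (-0.27 ± 0.10, adjusted p = 0.0285). The first call was lost on leaving out any 1 of saline replicates 1, 3 and 6 or vinblastine replicates 1, 4 and 6 (adjusted p of 0.0564 to 0.155), and the second any 1 of saline replicates 5 and 6 or colchicine replicates 2, 3, 4 and 6 (adjusted p of 0.0507 to 0.0743). The first was also lost without the 10 arrays (0.0561). Ccl6, a rodent ligand of the Ccl9 type, rose with vincristine 1 mg/kg at 24 h, from 256 ± 26.5 to 389.6 ± 60.9 (0.57 ± 0.17, adjusted p = 0.00764), and these groups did not overlap. Its 24 h mean with vinblastine 3 mg/kg was 349 ± 61.5 (0.41 ± 0.17, adjusted p = 0.123), which passed without the 10 arrays (0.41, adjusted p = 0.0229).

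Monocyte and macrophage markers moved at 24 h beside the Ccr2 ligands. Of 14 tested, 8 rose and 0 fell with vinblastine 3 mg/kg, 9 rose and 0 fell with vincristine 1 mg/kg, and 6 rose and 1 fell with colchicine 2 mg/kg. The sum over the 15 measured of 18 listed was 3458 to 4095 in saline at 24 h, 5892 to 8656 with vinblastine, 5073 to 6722 with vincristine and 3310 to 5267 with colchicine. At 6 h, 3 markers fell with vinblastine, 4 with vincristine and 2 with colchicine, and 1 rose in each, Cd14, the lipopolysaccharide co-receptor. Vinblastine at 24 h thus had the highest sums beside no call of Ccl2 or Ccl7. The part of these cells in the values was not tested.

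The 3 interferon-induced ligands of Cxcr3 are neighbours in the genome. Over all arrays Cxcl10 rose in 3 groups, and Cxcl9 and Cxcl11 fell in 1 of them. Cxcl10 was at 33.6, 39.9 and 41.9 in saline at 6 h and 56.5, 67.6 and 77.2 with vinblastine 3 mg/kg (0.60 ± 0.14, adjusted p = 0.000983), with no overlap. At 24 h it was at 34.4, 37.0 and 51.4 in saline, 63.8, 85.1 and 115 with vincristine 1 mg/kg (0.92 ± 0.14, adjusted p = 3.26e-07) and 45.7, 62.9 and 193 with colchicine 2 mg/kg (0.68 ± 0.14, adjusted p = 3.76e-05). All vincristine hearts lay above all saline hearts, whereas the lowest colchicine heart lay below the highest saline heart. Colchicine replicate 5 was highest by far, and without it the change was 0.43 (adjusted p = 0.00089). With vinblastine 3 mg/kg at 24 h the values were 41.8, 56.1 and 70.4 (0.38 ± 0.14, adjusted p = 0.0689). Cxcl10 passed there without the 10 arrays (0.38, adjusted p = 0.0466) and with vincristine 1 mg/kg at 6 h (0.42, adjusted p = 0.0441).

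Cxcl9 fell with colchicine 2 mg/kg at 24 h, from 135 ± 14.6 to 105 ± 26.0 (-0.34 ± 0.14, adjusted p = 0.0413). That call was lost on leaving out any 1 of saline replicates 2, 3, 4, 5 and 6 or colchicine replicates 2, 4 and 6 (adjusted p of 0.05001 to 0.132), and its second probe set did not pass (log2 change -0.25 ± 0.13, adjusted p = 0.1). Cxcl11 fell there from 553 ± 36.3 to 394 ± 149.8 (-0.54 ± 0.20, adjusted p = 0.0189), lost without colchicine replicate 4 (0.0508) or 6 (0.0746). Neither passed in another comparison with saline over all arrays, and without the 10 arrays Cxcl9 passed, higher, with vinblastine 3 mg/kg at 6 h (0.40, adjusted p = 0.0327). Cxcr3, the receptor, was dim. Cxcl10 and Cxcl11 overlap the gene Art3 in the RefSeq annotation, and the share of each in the signal was not tested. T and NK cell markers gave 0 rises at any higher dose, with 1 of 10 tested falling with vinblastine at 6 h and with vincristine and colchicine at 24 h (Cd4 each time). Their summed intensity was 746 to 825 in saline at 24 h and 730.3 to 798 with colchicine.

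Cxcl16 and Cx3cl1 are the ligands made as membrane proteins, and they are shed by proteases. Cxcl16 was at 247, 348 and 374 in saline at 24 h, 350.2, 524 and 589 with vincristine 1 mg/kg (0.57 ± 0.15, adjusted p = 0.00245) and 361, 579 and 831 with colchicine 2 mg/kg (0.78 ± 0.15, adjusted p = 1.57e-05). In both treated groups the lowest heart lay within the saline range. At 6 h it was at 308, 330.2 and 372 in saline and 330.0, 409.6 and 894 with vinblastine 3 mg/kg (0.41 ± 0.15, adjusted p = 0.0388), a call that rested on replicate 1 (0.21, adjusted p = 0.361 without it). It was also lost without saline replicate 1 (0.0579), 2 (0.0566), 3 (0.0592), 4 (0.0513) or 6 (0.0746). The 10 arrays left out, it was 0.22, adjusted p = 0.274.

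Cx3cl1, fractalkine, rose with vinblastine 3 mg/kg at 6 h. Its values were 220.1, 297 and 333 in saline and 338, 393 and 519 with vinblastine, without overlap (0.49 ± 0.11, adjusted p = 0.000744). Saline hearts at 24 h held 339 to 383, also all above the saline hearts at 6 h, though that difference did not pass. At 24 h vincristine 1 mg/kg (437 ± 74.7; 0.26 ± 0.11, adjusted p = 0.0658) and colchicine 2 mg/kg (432 ± 72.3; 0.25 ± 0.11, adjusted p = 0.0614) stayed short of the threshold beside 359 ± 15.2 in saline. Its receptor Cx3cr1 was dim. Cxcl16 overlaps Zmynd15 in the annotation.

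Ccl17 and Ccl22 draw T cells through Ccr4, Ccl24 draws eosinophils through Ccr3, and Xcl1 is made by T and NK cells. Ccl17 rose from 120.2 ± 9.41 to 146 ± 19.0 with vinblastine 3 mg/kg at 6 h (0.25 ± 0.09, adjusted p = 0.026) and to 148 ± 21.8 with colchicine 2 mg/kg (0.26 ± 0.09, adjusted p = 0.0391). The first call was lost on leaving out any 1 of saline replicate 4 or vinblastine replicates 3 and 6 (adjusted p of 0.0619 to 0.0858), and the second any 1 of saline replicates 1, 2, 3 and 4 or colchicine replicates 2, 3 and 6 (adjusted p of 0.056 to 0.163). Ccl17 also passed with vincristine 1 mg/kg at 6 h without the 10 arrays (0.26, adjusted p = 0.0345). Ccl22, its neighbour but for Cx3cl1, passed nowhere (group means 42.6 to 51.0).

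Ccl24 fell in 4 comparisons, with the largest change of -0.26 ± 0.07, adjusted p = 0.00758 (colchicine 2 mg/kg at 6 h, from 41.7 ± 3.48 to 32.1 ± 4.3). The others were -0.19 ± 0.07, adjusted p = 0.0338 with vinblastine 3 mg/kg at 6 h, -0.22 ± 0.07, adjusted p = 0.0131 with vincristine 1 mg/kg at 24 h and -0.21 ± 0.07, adjusted p = 0.0112 with colchicine at 24 h. It was above the filter on 14 of 82 arrays, so its level lay near the filter. The vinblastine call was lost on leaving out any 1 of saline replicates 1, 3 and 5 or vinblastine replicates 1 and 4 (adjusted p of 0.0598 to 0.0928), and without the 10 arrays (0.0586). Xcl1 fell in the same 4 comparisons, with changes of -0.21 ± 0.08, adjusted p = 0.0475, -0.25 ± 0.08, adjusted p = 0.0406, -0.21 ± 0.08, adjusted p = 0.0383 and -0.20 ± 0.08, adjusted p = 0.0346, in the order vinblastine, colchicine at 6 h, vincristine and colchicine at 24 h. Its largest fall was from 52.2 ± 7.01 to 41.7 ± 8.46. The vinblastine call was lost on leaving out any 1 of saline replicates 1, 2, 5 and 6 or vinblastine replicates 1, 2, 4, 5 and 6 (adjusted p of 0.0524 to 0.158), as it was without the 10 arrays (0.123), and the colchicine 6 h call any 1 of saline replicates 1, 2, 5 and 6 or colchicine replicates 2, 3, 5 and 6 (adjusted p of 0.0501 to 0.162). For vincristine these were saline replicates 1, 3, 5 and 6 or vincristine replicates 3, 4, 5 and 6 (adjusted p of 0.0505 to 0.116), and for colchicine at 24 h saline replicates 1 and 6 or colchicine replicates 2 and 4 (adjusted p of 0.0502 to 0.111).

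Ccl19, Ccl21 and Cxcl13 organise lymphoid tissue, and Ccl21 marks lymphatic endothelium. Ccl21 fell with colchicine 2 mg/kg at 24 h, from 843 ± 169 to 563 ± 60.8 (-0.55 ± 0.15, adjusted p = 0.00182), with every treated heart below every saline heart. At 6 h it did not pass with colchicine over all arrays (-0.33 ± 0.15, adjusted p = 0.183) and fell without the 10 (-0.49, adjusted p = 0.00379). Ccl19 (group means 96.7 to 108) and Cxcl13 (26.9 to 37.6) passed nowhere, nor did Cxcl14, a ligand of epithelia and fibroblasts (37.3 to 46.4). Ccl27, a skin ligand of Ccr10, lies next to Ccl19 and overlaps Il11ra1, an interleukin receptor gene. Its probe set was at 49.5, 58.9 and 62.7 in saline at 24 h and 52.7, 178 and 457 with colchicine 2 mg/kg (1.35 ± 0.24, adjusted p = 2.8e-06). Of 6 colchicine hearts 5 lay above all saline hearts, and replicate 1 lay within the saline range. Without the 10 arrays the change was 1.65, adjusted p = 3.58e-17. Vincristine 1 mg/kg at 24 h gave 66.0, 78.5 and 111, all above the saline values and short of the threshold (0.44 ± 0.24, adjusted p = 0.167). Without the 10 arrays, none of them from these groups, the same change passed (0.44, adjusted p = 0.0045).

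The array labelled vinblastine 3 mg/kg 6 h replicate 1 held 512 for Ccl27, where the other animals of that group held 51.3 to 61.3. Which transcripts of the overlapping genes the probe set reads was not tested.

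Cxcl12 and its receptors Cxcr4 and Ackr3 form an axis that retains progenitor cells and guides vessel growth. Cxcl12 fell at 24 h. It was at 1501, 1700.4 and 1909 in saline (1709 ± 146) and 459.6, 609.8 and 1661 with colchicine 2 mg/kg (750.1 ± 451). The 5 lower colchicine hearts lay far below the saline range, and replicate 1 lay within it. The change was -1.31 ± 0.20, adjusted p = 1.26e-07, and -1.57, adjusted p = 2.39e-14 without the 10 arrays. All 3 probe sets fell (-1.31, -1.03 and -0.77). Vincristine 1 mg/kg gave 839, 1109 and 1912 (-0.52 ± 0.20, adjusted p = 0.0409), overlapping saline, and its other probe sets did not pass (-0.17, adjusted p = 0.456, and -0.40, 0.0581). This call was lost in 11 alternatives, which were no filter (0.0513), quantile normalization (0.0891), the mean of its probe sets (0.0536), the fits without saline replicate 1 (0.0592), 2 (0.077), 3 (0.0718) or 5 (0.0557) and without vincristine replicate 1 (0.124), 2 (0.0633), 4 (0.0852) or 6 (0.0724).

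At 6 h the median Cxcl12 values lay between 1386 and 1658 in saline and the 3 higher-dose groups, and none passed (adjusted p 0.577 to 0.909). A second probe set, also bright on all 82 arrays, passed with vinblastine 3 mg/kg at 6 h (-0.44 ± 0.16, adjusted p = 0.0366), where the brightest was at -0.04 ± 0.20, adjusted p = 0.909. With vinblastine 3 mg/kg at 24 h the brightest probe set passed without the 10 arrays (-0.39, adjusted p = 0.0488). The array labelled vinblastine 3 mg/kg 6 h replicate 1 held 479.95, against 1370 to 2007 in the rest of its group.

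Cxcr4 fell in all 6 higher-dose groups and was the member called most often in the comparisons with saline. Saline hearts were at 195, 276 and 369 at 6 h (281 ± 72.7) and 218, 265 and 336 at 24 h (275 ± 45.0). At 6 h vinblastine 3 mg/kg gave 111, 161 and 193 (-0.74 ± 0.18, adjusted p = 0.00167), vincristine 1 mg/kg 98.0, 164 and 279 (-0.70 ± 0.18, adjusted p = 0.0191) and colchicine 2 mg/kg 122, 137 and 249 (-0.78 ± 0.18, adjusted p = 0.00232). All vinblastine hearts lay below all saline hearts, and the other two groups overlapped saline with 1 or more animals. At 24 h the values were 137, 146 and 254 (-0.64 ± 0.18, adjusted p = 0.0148), 93.7, 136 and 168 (-0.97 ± 0.18, adjusted p = 2.24e-05) and 122, 156 and 274 (-0.67 ± 0.18, adjusted p = 0.0017) in the same order. There the vincristine group was clear of saline.

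All 3 probe sets of Cxcr4 were lower in each of these groups, and 1 of them missed the threshold with vincristine at 6 h (adjusted p = 0.0689). The vincristine 6 h call was lost without saline replicate 6 (0.0684) or vincristine replicate 2 (0.0614), 4 (0.0661), 5 (0.0561) or 6 (0.0915). Without the 10 arrays the 6 changes ran from -0.64 to -0.97 and passed in each. At the lower doses the changes passed nowhere.

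Ackr3, which scavenges Cxcl12, rose with colchicine 2 mg/kg at 24 h. It was at 996, 1188 and 1584 in saline and 1266, 2146 and 2623 with colchicine (0.74 ± 0.15, adjusted p = 4.13e-05; 0.88, adjusted p = 8.71e-09 without the 10 arrays). Replicate 1 was again the heart within the saline range, and the other 5 lay above it. In the same hearts ligand and receptor Cxcr4 were lower and the scavenger higher. The change with vincristine 1 mg/kg at 24 h was short of the threshold (0.31 ± 0.15, adjusted p = 0.117) and passed without the 10 arrays (0.31, adjusted p = 0.0335).

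**Figure D3:**
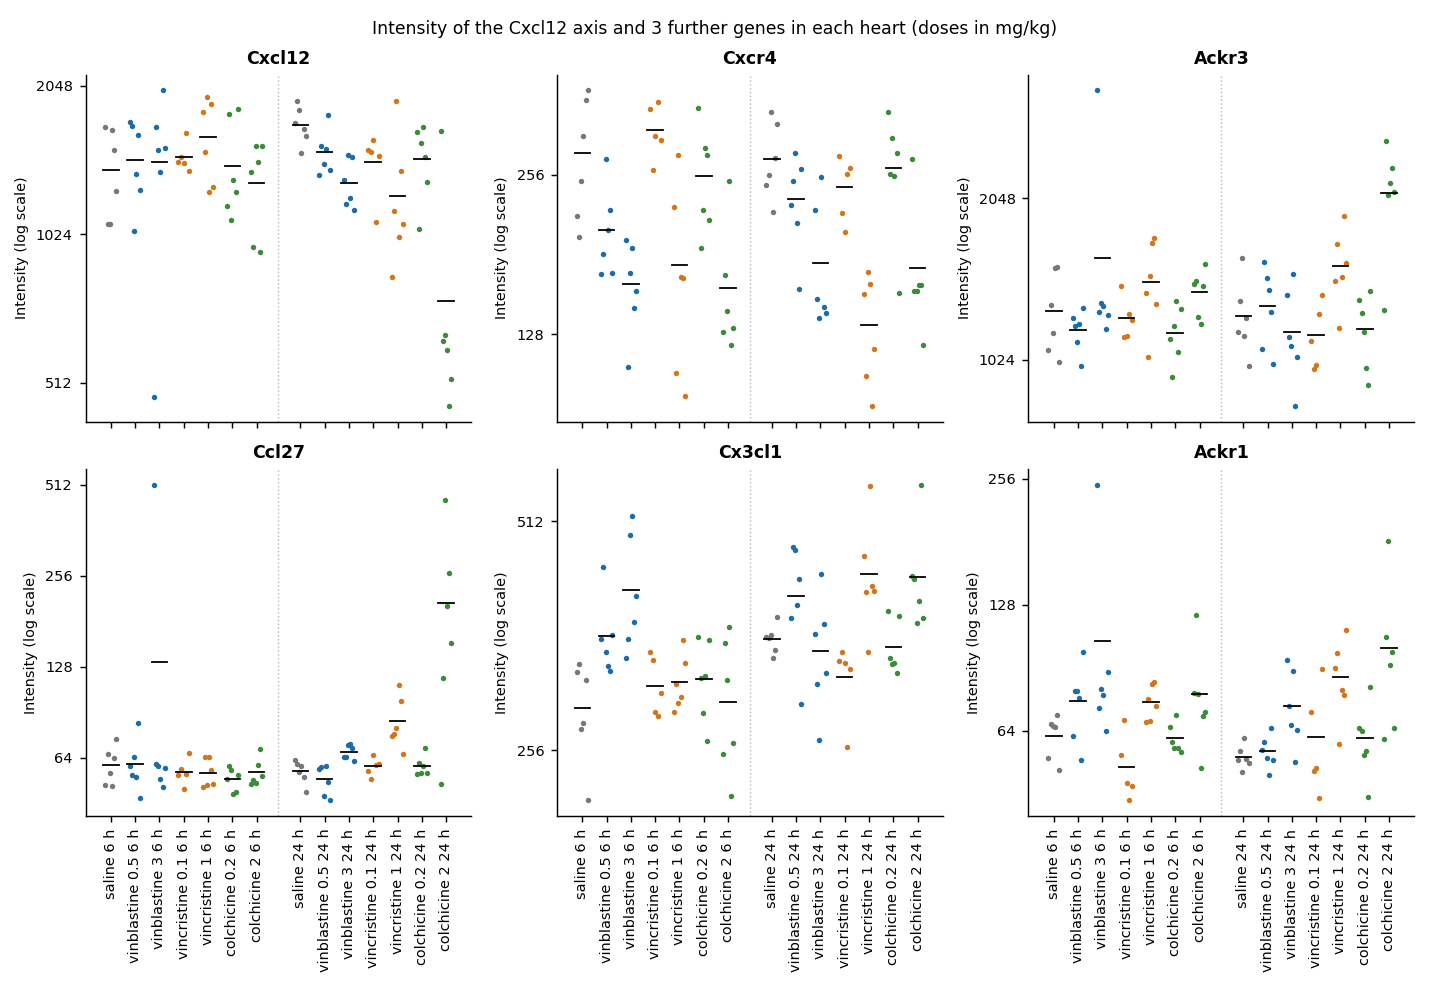
Intensity (log axis) of Cxcl12, Cxcr4, Ackr3, Ccl27, Cx3cl1 and Ackr1 in each heart, with 1 point per animal and a bar at the arithmetic mean of the group, for saline (grey), vinblastine (blue), vincristine (orange) and colchicine (green) at 6 and 24 h. In the colchicine 2 mg/kg group at 24 h, 5 hearts have Cxcl12 between 459.6 and 639 and 1 heart has 1661. The vinblastine 3 mg/kg group at 6 h has 1 heart at 479.95 with Ccl27 at 512 and Ackr3 at 3258.

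Fibroblast and mural cell markers were measured beside this axis, since fibroblasts are a known source of Cxcl12. With colchicine 2 mg/kg at 24 h 4 of 6 fibroblast markers fell and 2 rose. Lum, a collagen-binding proteoglycan, fell from 2338 ± 229 to 802 ± 594, Col1a1, a collagen, fell from 4005 ± 365 to 2222 ± 683, and Tcf21, a fibroblast transcription factor, rose from 230.2 ± 18.9 to 489 ± 126. Among the mural markers, Rgs5 fell from 1123 ± 131 to 547 ± 320 and Kcnj8 from 449.8 ± 31.0 to 248 ± 103. Cspg4, another mural marker, rose from 181 ± 14.9 to 271 ± 60.5. The summed fibroblast markers were 18073 to 22298 in saline and 13832 to 19376 with colchicine, and the summed mural markers 2979.8 to 3978 and 2635 to 3886. These mural sums hide the opposite moves of single genes. Of 9 endothelial markers 6 rose and 1 fell there, with Cldn5, a tight junction protein, rising from 353 ± 80.3 to 818 ± 228. Their part in the values was not tested.

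Ackr1, the Duffy receptor that carries chemokines across venular endothelium, rose in 3 groups. It was at 51.1, 54.7 and 61.6 in saline at 24 h, 59.5, 85.3 and 112 with vincristine 1 mg/kg (0.50 ± 0.17, adjusted p = 0.0153) and 61.3, 95.6 and 182 with colchicine 2 mg/kg (0.64 ± 0.17, adjusted p = 0.000889). The lowest hearts of both groups lay within the saline range. The vincristine call was lost without its replicate 6 (adjusted p = 0.0509). At 6 h vinblastine 3 mg/kg gave 63.9, 79.2 and 248 against 51.6, 65.6 and 69.8 (0.49 ± 0.17, adjusted p = 0.022). That call rested on replicate 1 (0.24, adjusted p = 0.302 without it), and was lost without saline replicate 6 too (0.0548); without the 10 arrays it was 0.24, adjusted p = 0.215.

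Ackr2, a scavenger of inflammatory CC ligands, fell from 85.2 ± 17.2 to 70.3 ± 5.27 with vinblastine 3 mg/kg at 6 h (-0.22 ± 0.08, adjusted p = 0.0343). Its second probe set did not pass (-0.09, adjusted p = 0.278), and the call was lost without saline replicate 3 (0.185) or 6 (0.127) or vinblastine replicate 1 (0.0871) or 4 (0.0905), and without the 10 arrays (0.0913). Ackr4, which binds Ccl19 and Ccl21 and overlaps Acad11 in the RefSeq annotation, passed nowhere over all arrays (group means 84.9 to 108).

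Among the signalling receptors other than Cxcr4, few were bright enough to read. Ccr1, a receptor of Ccl3, Ccl5 and Ccl7, rose at 24 h with vincristine 1 mg/kg, from 38.0 ± 4.88 to 51.4 ± 8.27 (0.32 ± 0.10, adjusted p = 0.0129), and with colchicine 2 mg/kg, to 53.1 ± 9.25 (0.35 ± 0.10, adjusted p = 0.00327). The first call was lost without vincristine replicate 5 (adjusted p = 0.0567), and the gene was above the filter on 23 of 82 arrays. Ccr10 fell from 44.4 ± 4.41 to 37.7 ± 2.66 with vincristine 1 mg/kg at 24 h (-0.17 ± 0.05, adjusted p = 0.00842). Ccr3 (group means 31.4 to 40.1), Ccr6 (42.0 to 47.1) and Cxcr5 (245 to 302) passed in no comparison with saline. In the RefSeq annotation Ccr10 overlaps Cntnap1, Cxcr5 overlaps Bcl9l and Ccr3 overlaps Ccr1l1, and the share of each gene in the signal was not tested. A second, dim probe set of Cxcr5, above the filter on 0 of 82 arrays with a mean of 29.1, passed with colchicine 2 mg/kg at 24 h (0.16 ± 0.06, adjusted p = 0.0126). Ccr2, Ccr4, Cx3cr1, Cxcr1, Cxcr2 and Cxcr3, with the ligands Ccl9, Ccl11, Ccl28 and Cxcl6, were above the filter on 0 of 82 arrays. Their mean intensities were 15.6 to 32.6, where the filter stood at 38.5 to 44.1. The receptors of Cxcl1, Cxcl2, Ccl2 and Cxcl10 are thus among the genes without a reading.

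**Figure D4:**
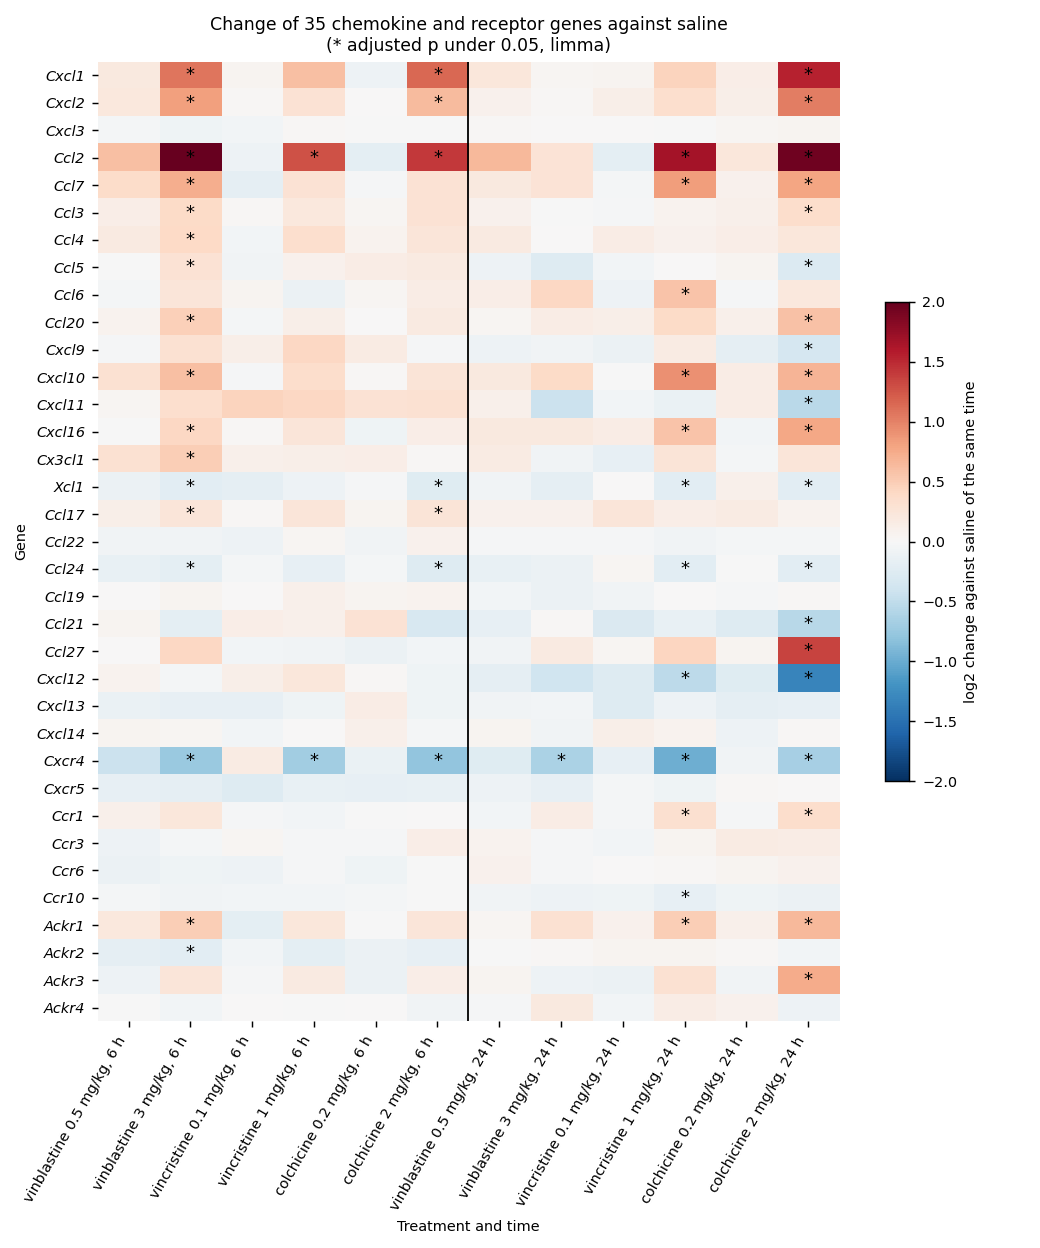
Colour map of the log2 change against saline of the same time for the 35 tested members down the left side in each treatment and time (columns, with a line between 6 and 24 h), where an asterisk marks an adjusted p under 0.05 in limma. Ccl2 is red with asterisks in 5 higher-dose columns, Cxcr4 is blue with asterisks in all 6, and the lower-dose columns hold no asterisk.

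Over all 12 comparisons with saline, 26 of 35 tested members passed at least 1 time: 16 rose only, 9 fell only and Ccl5 did both. Of all genes tested 57.1% passed at least 1 time. The 9 that passed in none were Ackr4, Ccl19, Ccl22, Ccr3, Ccr6, Cxcl3, Cxcl13, Cxcl14 and Cxcr5. The genome places many of them side by side, and neighbours did not always move together. In the cluster Ccl5, Ccl9, Ccl6, Ccl3 and Ccl4, colchicine 2 mg/kg at 24 h had Ccl3 higher (0.35 ± 0.11, adjusted p = 0.00529) and Ccl5 lower (-0.27 ± 0.10, adjusted p = 0.0285). In Cxcl11, Cxcl10 and Cxcl9 it had the middle gene higher and the outer genes lower. The calls of Ccl3, Ccl5, Cxcl9 and Cxcl11 named here were each lost when certain single arrays were left out. Cxcl10 and Cxcl11 also overlap Art3. Ccl2 and Ccl7 were higher together in 3 groups, and Cxcl1 and Cxcl2 together in 3.

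Setting the higher against the lower dose of a compound used treated hearts on both sides. With vinblastine at 6 h, Ccl2 (1.41 ± 0.35, adjusted p = 0.00974) and Cxcl2 (0.62 ± 0.20, adjusted p = 0.0357) were higher at 3 than at 0.5 mg/kg (2 of 35 members, 5.71%, beside 8.53% of all genes). With vincristine at 6 h Ccl2 was higher (1.38 ± 0.37, adjusted p = 0.026) and Cxcr4 lower (-0.87 ± 0.19, adjusted p = 0.00813) at the higher dose (5.71%, beside 2.81%). With colchicine at 6 h Ccl2 (1.61 ± 0.35, adjusted p = 0.00115), Cxcl1 and Cxcl2 were higher and Ccl21 (-0.61 ± 0.15, adjusted p = 0.00467), Ccl24 and Cxcr4 lower (17.1%, beside 9.25%). The lower dose had hearts as high as 237 for Ccl2 with vinblastine 0.5 mg/kg at 6 h, above the lowest heart of the higher dose.

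At 24 h the 2 vinblastine doses differed for 0 members (5.49% of all genes). In limma 5 members had an unadjusted p under 0.05, beside 1940 of 11319 genes. Vincristine had 8 higher and 2 lower (28.6%, beside 23.9%), led by Ccl2 (1.86 ± 0.37, adjusted p = 0.000103), Cxcl10 (0.92 ± 0.15, adjusted p = 1.85e-06) and Ccl7 (0.89 ± 0.17, adjusted p = 8.17e-05). Cx3cl1 (0.42 ± 0.12, adjusted p = 0.00442) and Ackr3 (0.42 ± 0.16, adjusted p = 0.0452), which did not pass against saline, were higher too. Colchicine had 12 higher and 6 lower (51.4%, beside 41.5%). The largest were Ccl2 (1.71 ± 0.35, adjusted p = 5.27e-05), Cxcl1 (1.41 ± 0.31, adjusted p = 0.000129), Ccl27 (1.31 ± 0.24, adjusted p = 7.05e-06) and, lower, Cxcl12 (-1.07 ± 0.20, adjusted p = 1.05e-05) and Cxcl11 (-0.69 ± 0.20, adjusted p = 0.00266).

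Single arrays decided some of these dose differences. At 6 h the vinblastine difference of Ccl2 was lost without vinblastine 3 mg/kg replicate 1 (adjusted p = 0.0947), and that of Cxcl2 without any 1 of vinblastine 0.5 mg/kg replicates 1, 2, 3, 4 and 5 or vinblastine 3 mg/kg replicate 1 (adjusted p of 0.0508 to 0.46). The vincristine difference of Ccl2 was lost without any 1 of vincristine 0.1 mg/kg replicates 2, 3 and 5 or vincristine 1 mg/kg replicates 2, 4, 5 and 6 (adjusted p of 0.0553 to 0.0923). For colchicine, Cxcl1 was lost without colchicine 2 mg/kg replicate 2 (adjusted p = 0.0607), Cxcl2 without any 1 of colchicine 0.2 mg/kg replicates 1, 2 and 6 or colchicine 2 mg/kg replicates 2 and 5 (adjusted p of 0.0512 to 0.162) and Ccl24 without any 1 of colchicine 0.2 mg/kg replicates 1, 3 and 5 or colchicine 2 mg/kg replicates 1, 2 and 3 (adjusted p of 0.0543 to 0.123). At 24 h the vincristine difference of Ackr3 was lost without any 1 of vincristine 0.1 mg/kg replicates 1, 2 and 3 or vincristine 1 mg/kg replicates 1, 2, 4, 5 and 6 (adjusted p of 0.0513 to 0.123), that of Cxcl16 without any 1 of vincristine 0.1 mg/kg replicates 1, 3, 4 and 5 or vincristine 1 mg/kg replicates 2, 3, 4 and 5 (adjusted p of 0.0532 to 0.156) and that of Ccl24 without vincristine 0.1 mg/kg replicate 4 (adjusted p = 0.0851). Of the colchicine differences, Cx3cl1 was lost without any 1 of colchicine 0.2 mg/kg replicates 2, 3, 4 and 5 or colchicine 2 mg/kg replicate 5 (adjusted p of 0.0546 to 0.156), Ackr1 without colchicine 2 mg/kg replicate 3 (adjusted p = 0.0625), Ccl20 without colchicine 2 mg/kg replicate 4 (adjusted p = 0.252) and Ccl24 without colchicine 0.2 mg/kg replicate 1 (adjusted p = 0.0916). The other differences kept their call in every such fit. Leaving out the 10 arrays lost the vincristine difference of Cxcl16 at 24 h (0.0537). Gained then at 6 h, all higher at the higher dose, were Ccl4 (0.35, adjusted p = 0.027) and Cxcl9 (0.51, adjusted p = 0.0109) with vinblastine, and Ccl7 (0.52, adjusted p = 0.00757), Ccl4 (0.42, adjusted p = 0.00525), Ackr1, Cxcl10 and Cxcl2 (adjusted p 0.0181, 0.0437 and 0.0457) with vincristine. With colchicine Xcl1 was lower (-0.28, adjusted p = 0.0406). Gains at 24 h were Ackr4 (0.26, adjusted p = 0.0337) and Cxcr4 (-0.49, adjusted p = 0.0282) with vinblastine, Ackr1 (0.53, adjusted p = 0.00179) and Ccl27 (0.40, adjusted p = 0.0274) with vincristine and Ccl3 (0.28, adjusted p = 0.0338) with colchicine.

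Whether a change against saline differed between 6 and 24 h was tested within each compound at its higher dose. For vinblastine 3 mg/kg, 3 members passed, all with a lower change at 24 h (4.44% of all genes): Ccl2 (-1.73 ± 0.50, adjusted p = 0.0312), Cx3cl1 (-0.55 ± 0.16, adjusted p = 0.0282) and Ccl5 (-0.55 ± 0.15, adjusted p = 0.0191). The Cx3cl1 difference includes a shift between the saline groups, from 220 to 333 at 6 h to 339 to 383 at 24 h. For vincristine 1 mg/kg Cxcl10 alone passed, with a larger rise at 24 h (0.57 ± 0.20, adjusted p = 0.0413; 12.3% of all genes). For colchicine 2 mg/kg 3 members had a higher change at 24 h, Ccl27 (1.42 ± 0.34, adjusted p = 0.00166), Cxcl16 (0.65 ± 0.21, adjusted p = 0.0236) and Ackr3 (0.61 ± 0.22, adjusted p = 0.0357). Another 3 had a lower one, Cxcl12 (-1.23 ± 0.28, adjusted p = 0.00119), Cxcl11 (-0.84 ± 0.28, adjusted p = 0.0239) and Ccl5 (-0.44 ± 0.15, adjusted p = 0.0249), where 18.9% of all genes passed. The colchicine differences in Cxcl1 (0.40 ± 0.44, adjusted p = 0.59), Ccl2 (0.53 ± 0.50, adjusted p = 0.527) and Cxcr4 (0.12 ± 0.26, adjusted p = 0.815) did not pass, and neither did the vinblastine difference in Cxcl1 (-1.03 ± 0.44, adjusted p = 0.157).

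Of these 10 differences, the colchicine differences of Ccl27 and Cxcl12 kept their call when any 1 array was left out. The vinblastine difference of Ccl2 was lost on leaving out any 1 of saline 6 h replicates 3 and 6 or saline 24 h replicate 3 or vinblastine 3 mg/kg 6 h replicates 1 and 4 or vinblastine 3 mg/kg 24 h replicates 2 and 3 (adjusted p of 0.0501 to 0.0852), that of Cx3cl1 any 1 of saline 6 h replicate 6 or vinblastine 3 mg/kg 6 h replicates 3 and 4 or vinblastine 3 mg/kg 24 h replicate 3 (adjusted p of 0.0534 to 0.0692) and that of Ccl5 vinblastine 3 mg/kg 6 h replicate 4 (adjusted p = 0.0547). The vincristine difference of Cxcl10 was lost on leaving out any 1 of saline 6 h replicates 3, 4, 5 and 6 or saline 24 h replicates 1, 2, 3, 4 and 5 or vincristine 1 mg/kg 6 h replicates 1, 3, 4 and 5 or vincristine 1 mg/kg 24 h replicates 1, 4 and 5 (adjusted p of 0.0507 to 0.0911). For colchicine, that of Ackr3 was lost without any 1 of saline 6 h replicates 4 and 5 or saline 24 h replicates 1, 4 and 6 or colchicine 2 mg/kg 6 h replicates 3 and 4 or colchicine 2 mg/kg 24 h replicates 2, 3, 4, 5 and 6 (adjusted p of 0.051 to 0.0737). The arrays were saline 24 h replicate 4 or colchicine 2 mg/kg 24 h replicate 3 (adjusted p of 0.0558 to 0.0758) for Cxcl16, saline 6 h replicates 1 and 6 or colchicine 2 mg/kg 24 h replicate 6 (adjusted p of 0.0569 to 0.0642) for Cxcl11 and colchicine 2 mg/kg 6 h replicates 1 and 3 or colchicine 2 mg/kg 24 h replicate 6 (adjusted p of 0.0515 to 0.0614) for Ccl5. That of Cxcl10 with vincristine was also lost without the 10 arrays (0.072). Others passed then: Ccl4 (-0.43, adjusted p = 0.049), Cxcl11 (-0.84, adjusted p = 0.0263) and Cxcl12 (-0.64, adjusted p = 0.0397) with vinblastine, Ccl6 (0.79, adjusted p = 0.00176), Ccr1 (0.41, adjusted p = 0.00678) and Cxcl12 (-0.69, adjusted p = 0.0142) with vincristine, and Ccl7 (0.54, adjusted p = 0.0258), Ccr1 (0.39, adjusted p = 0.00674) and Cxcl2 (0.45, adjusted p = 0.0245) with colchicine.

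**Figure D5:**
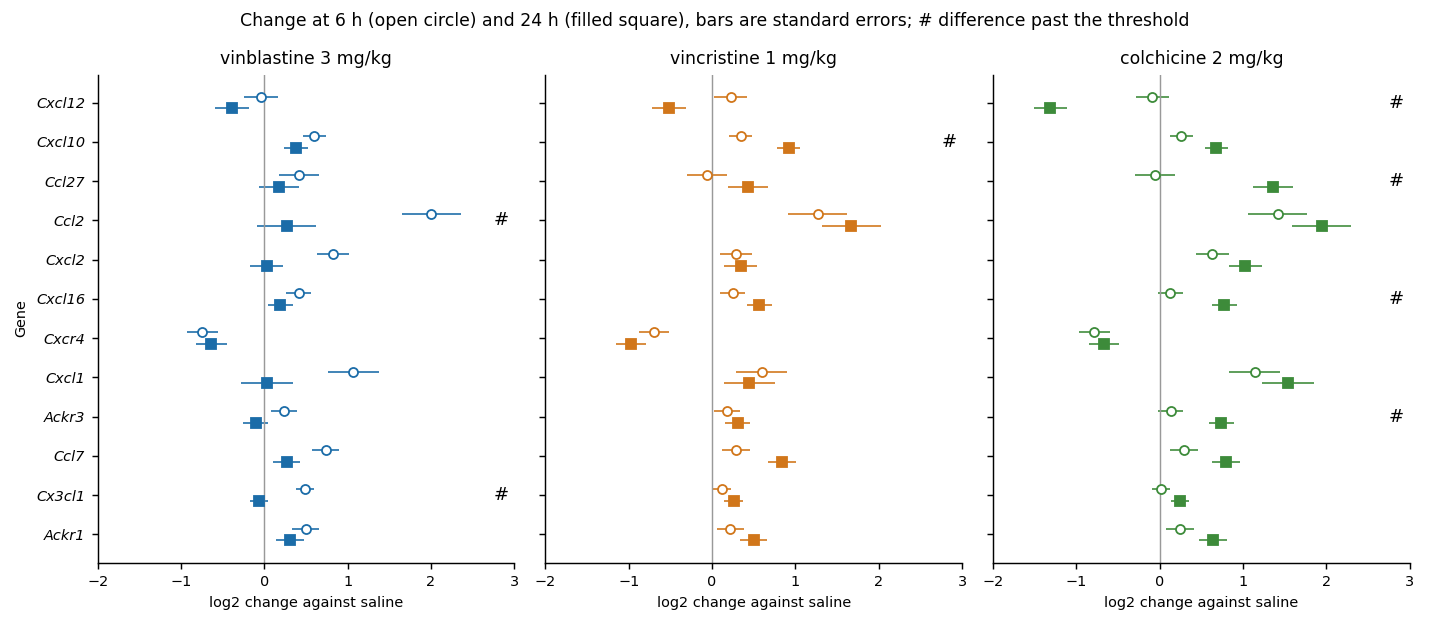
Change against saline on the log2 scale of the 12 members with the lowest adjusted p, at 6 h (open circles) and 24 h (filled squares), for vinblastine 3 mg/kg, vincristine 1 mg/kg and colchicine 2 mg/kg, with standard errors as bars and # where the difference between the times passed an adjusted p of 0.05. Ccl2 goes from 2.00 to 0.27 with vinblastine, and Cxcl12 from -0.09 to -1.31 with colchicine.

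Genes upstream of chemokines, the cytokine and NF-kappaB list, had more rises than falls. As background for this and every other gene list, the shares of all genes that rose and fell at 6 h were 15.7% and 7.67% with vinblastine 3 mg/kg, 2.05% and 1.25% with vincristine 1 mg/kg and 4.89% and 4.37% with colchicine 2 mg/kg. At 24 h they were 5.29% and 4.28%, 12% and 18.4%, and 19.3% and 25.3% in the same order. Of 23 tested, 15 rose and 0 fell with vinblastine 3 mg/kg at 6 h, and 16 rose and 0 fell with colchicine 2 mg/kg at 24 h. Vincristine 1 mg/kg had 5 and 12 rises at 6 and 24 h with 0 falls, vinblastine 5 rises and 1 fall at 24 h, and colchicine 7 rises and 1 fall at 6 h. The list's median log2 change was 0.34 with vinblastine at 6 h and 0.39 with colchicine at 24 h, beside 0.01 and 0 over all genes. Cebpb, a transcription factor of acute inflammation, rose from 210.2 ± 69.7 to 1127 ± 638 with vinblastine at 6 h (log2 change 2.26 ± 0.36, adjusted p = 6.71e-06) and from 215 ± 55.2 to 1354 ± 525 with colchicine at 24 h (log2 change 2.42 ± 0.36, adjusted p = 6.13e-08). Nfkbia, the NF-kappaB inhibitor that NF-kappaB itself induces, rose from 459 ± 50.4 to 1032 ± 314 with vincristine at 24 h (log2 change 1.09 ± 0.25, adjusted p = 0.000439) and from 459 ± 50.4 to 1030.2 ± 273 with vinblastine at 24 h (log2 change 1.10 ± 0.25, adjusted p = 0.00146), where Cxcr4 alone passed among the members.

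Downstream of the receptors, 3 of 17 tested signalling genes rose and 2 fell with vinblastine 3 mg/kg at 6 h, and 5 rose and 1 fell with colchicine 2 mg/kg at 24 h. The counts were 0 and 0 with vincristine at 6 h, 2 up and 1 down at 24 h, 1 up and 1 down with colchicine at 6 h and 1 up with vinblastine at 24 h. Jak2, a kinase of cytokine receptors, rose from 104 ± 11.2 to 401 ± 191 (log2 change 1.65 ± 0.24, adjusted p = 3.84e-08) and Grk5, a kinase that switches receptors off, from 130.5 ± 17.1 to 344 ± 118 (log2 change 1.22 ± 0.19, adjusted p = 1.61e-07), both with colchicine at 24 h. Rgs16, which shortens G protein signals, rose from 81.5 ± 5.94 to 153 ± 26.6 with vinblastine at 6 h (log2 change 0.79 ± 0.18, adjusted p = 0.00088).

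Genes that display or cleave chemokines split: 5 of 16 rose and 5 fell with colchicine 2 mg/kg at 24 h, 3 and 3 with vincristine 1 mg/kg at 24 h, and 4 and 1 with vinblastine 3 mg/kg at 6 h. Vinblastine at 24 h had 1 and 1, vincristine at 6 h 1 and 0, and colchicine at 6 h 2 and 0. Dpp4, the peptidase that inactivates Cxcl12, fell from 178 ± 23.0 to 71.9 ± 24.8 with colchicine at 24 h (log2 change -1.17 ± 0.15, adjusted p = 2.42e-09), and it fell with vincristine and vinblastine at 24 h too (log2 change -0.88 ± 0.15, adjusted p = 5.16e-06, and log2 change -0.69 ± 0.15, adjusted p = 0.000977). Sdc4, a heparan sulfate proteoglycan, rose from 669.6 ± 88.2 to 1799 ± 618 (log2 change 1.32 ± 0.21, adjusted p = 2.57e-07).

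Of 14 leukocyte adhesion genes, 4 rose with vinblastine 3 mg/kg at 6 h and 0 fell, 3 rose with colchicine 2 mg/kg at 6 h and 0 fell, and 3 rose and 1 fell with vincristine 1 mg/kg. At 24 h the rises and falls were 2 and 0, 4 and 1, and 5 and 1 with vinblastine, vincristine and colchicine. Icam1, the endothelial ligand of leukocyte integrins, rose from 135 ± 18.4 to 447 ± 98.3 with vinblastine at 6 h (log2 change 1.60 ± 0.24, adjusted p = 2.46e-06), and Vcam1, its counterpart for monocytes and lymphocytes, from 62.4 ± 17.4 to 174 ± 46.3 (log2 change 1.28 ± 0.25, adjusted p = 9.98e-05). Of 12 other chemoattractant and receptor genes 0 to 3 rose and 0 or 1 fell in each higher-dose comparison. C5ar1, the receptor of the complement fragment C5a, rose with vincristine 1 mg/kg at 24 h from 141 ± 10.4 to 185 ± 23.8. None of these 5 lists had a member past the threshold at a lower dose.

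The remaining marker lists moved little. Of 2 B cell markers tested, 0 passed at any higher dose. Of 4 mast cell markers 1 fell with vinblastine 3 mg/kg at 6 h (Cpa3) and 1 rose with each of vincristine (Tpsab1) and colchicine (Kit) at 24 h. Of 3 platelet markers 1 fell, Itga2b with vincristine at 24 h. Of 7 cardiomyocyte markers 2 fell with colchicine at 24 h (Myh6 and Ryr2), 1 with vincristine at 24 h (Myh6), and 1 rose with vinblastine at 6 h (Actn2).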

How the data were processed

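Total RNA of whole hearts was measured on Affymetrix rat expression arrays, 1 per animal, after labelling by the 3' IVT express protocol, per the labels' protocols. The values deposited by the authors are linear intensities, 1 for each probe set and array. How they were summarised is not given in the sources used here. A platform annotation gave 1 gene symbol for 20832 of 31099 probe sets, several for 436 and no entry for 9831. Its 57 control probe sets were left out.

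Here the deposited intensities were turned into log2(intensity + 16), which understates changes of dim genes. The brightest probe set stood for each of 14217 genes, and 11319 genes passed a filter (above the 40th percentile of the array on at least 5 arrays). Group means were fitted over all 82 arrays with limma 3.58.1 (lmFit and eBayes) in R 4.3.3. In all 22 comparisons p values were two-sided and adjusted by the Benjamini-Hochberg method over all genes, with a threshold of 0.05. The fit was tested on simulated data. Labels gave each animal's group. An array was called nearer another group when its distance to its own group's median exceeded that to another's by a ratio over 1.3. The array itself was left out of its own group's median.

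The 12 members with the lowest adjusted p against saline are described heart by heart, other members past the threshold by their change, and the rest by their levels. Of other lists, up to 3 genes per comparison with the largest change are named. The members and the lists were chosen with earlier results of these data known. Alternatives were other added amounts, filters, probe set rules, normalization, array weights, a block for the replicate number, fewer groups and fewer arrays.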

Additional observations from a re-analysis of the deposited data

Results flagged for a closer look

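In 25 of 168 groups of the 12 members described heart by heart, 1 animal lay farther from the rest of its group than Dixon's 95% critical value allows. Chance alone gives about 1 in 20. Of these, 7 belong to the array labelled vinblastine 3 mg/kg 6 h replicate 1. It held 479.95 for Cxcl12 (the other animals of that group 1370 to 2007), 512 for Ccl27 (51.3 to 61.3), 213 for Cxcl2 (33.4 to 50.2), 894 for Cxcl16 (330.0 to 427), 328 for Cxcl1 (43.6 to 94.8), 3258 for Ackr3 (1166 to 1309) and 248 for Ackr1 (63.9 to 88.5).

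The array labelled colchicine 2 mg/kg 24 h replicate 1 held 1661 for Cxcl12 (the other animals 459.6 to 639), 274 for Cxcr4 (122 to 159) and 1266 for Ackr3 (2078 to 2623). In the same group replicate 5 held 193 for Cxcl10 (45.7 to 67.2) and 572 for Cx3cl1 (376 to 433). Replicate 2 of the colchicine 2 mg/kg group at 6 h held 421 for Cxcl1 (31.1 to 90.4) and 527 for Cxcl16 (296 to 364). The array labelled colchicine 0.2 mg/kg 24 h replicate 6 held 153 for Cxcr4 (254 to 337) and 75.2 for Cxcl1 (24.2 to 36.0).

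Vinblastine 0.5 mg/kg at 24 h had 1 animal, replicate 5, with 379 for Ccl2 (the others 52.6 to 94.4), 40.4 for Cxcl2 (21.3 to 26.4), 101 for Cxcl1 (27.8 to 35.0) and 118 for Ccl7 (25.1 to 36.7), where the group as a whole had no call. Ccl2 was 374 in vincristine 1 mg/kg 24 h replicate 5 (204 to 227 in the others). Replicate 4 of vincristine 0.1 mg/kg at 24 h held 1085 for Cxcl12 (1478 to 1592) and 258 for Cx3cl1 (327 to 344). Saline 24 h replicate 6 held 51.4 for Cxcl10 (34.4 to 38.4), and vinblastine 0.5 mg/kg 6 h replicate 2 held 446 for Cx3cl1 (325 to 363).

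The change against saline differed between 6 and 24 h in 10 instances by limma's test of the difference itself (adjusted p under 0.05). As the change at 24 h minus that at 6 h on the log2 scale, these were Ccl2 (-1.73), Cx3cl1 (-0.55) and Ccl5 (-0.55) with vinblastine 3 mg/kg and Cxcl10 (0.57) with vincristine 1 mg/kg. With colchicine 2 mg/kg they were Ccl27 (1.42), Cxcl16 (0.65), Ackr3 (0.61), Cxcl12 (-1.23), Cxcl11 (-0.84) and Ccl5 (-0.44).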

How the results depend on the processing

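Of the 107 calls of members over all 22 comparisons, 56 held under every alternative and 0 reversed. The counts of members past the threshold that moved by over 1.5 times were as follows; the cause was not tested beyond the fewer arrays or genes in each fit. With only the compared groups in the fit, the count against saline was 6 for vinblastine 3 mg/kg at 6 h (17 as reported), 1 for vincristine 1 mg/kg at 6 h (2) and 6 for vinblastine 3 mg/kg at 24 h (1). Between doses it was 0 for vinblastine (2) and 5 for vincristine (2) at 6 h and 1 for vinblastine at 24 h (0), and between times 6 for vincristine (1). Without the 10 arrays nearer another group, an alternative chosen after seeing the data, it was 10 for vinblastine 3 mg/kg, 7 for vincristine 1 mg/kg and 11 for colchicine 2 mg/kg (7) at 6 h, and 4 for vinblastine at 24 h. Between doses it was then 4 for vinblastine and 7 for vincristine at 6 h and 2 for vinblastine at 24 h, and between times 6 for vinblastine (3) and 3 for vincristine. Without the 6 arrays whose description ends in _2 it was 9 for vinblastine 3 mg/kg and 4 for vincristine 1 mg/kg at 6 h, 2 for vinblastine at 24 h, 0 between the vinblastine doses at 6 h and 4 between times for vincristine. Array weights gave 5 for vinblastine 3 mg/kg at 24 h, 10 between the colchicine doses at 6 h (6), 3 between the vinblastine doses at 24 h, and 5, 6 and 14 between times for vinblastine, vincristine and colchicine (6). Adding 64 before log2 gave 1 for vincristine 1 mg/kg against saline and 1 between its doses at 6 h, and 0 between times. Adding 1, or no filter, gave 2 for vinblastine at 24 h, and the filter at the array's median, or the mean of probe sets, gave 2 between times for vincristine. Calls over all genes moved too. Without the 10 arrays they went at 6 h from 2642 to 1789 (vinblastine 3 mg/kg), 374 to 1395 (vincristine 1 mg/kg) and 1049 to 2189 (colchicine 2 mg/kg). For vinblastine at 24 h they went from 1084 to 1784. The members' counts under the alternatives, also with 1 array left out, are thus descriptions only.

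Leaving out 1 array at a time gave 8 to 17 calls for vinblastine 3 mg/kg, 0 to 3 for vincristine 1 mg/kg and 2 to 9 for colchicine 2 mg/kg at 6 h, and 1 to 2, 9 to 12 and 15 to 20 at 24 h. Between doses it gave 0 to 5, 1 to 3 and 3 to 7 at 6 h and 0 to 1, 8 to 10 and 17 to 20 at 24 h, and between times 0 to 4, 0 to 3 and 4 to 8. Every fit left the lower doses and the saline times at 0. Quantile normalization moved the split of all genes past the threshold, from 1774 higher and 868 lower to 1469 and 1314 with vinblastine 3 mg/kg and from 232 and 142 to 205 and 225 with vincristine 1 mg/kg at 6 h, and from 1356 and 2081 to 1846 and 1835 with vincristine at 24 h. The members' split was 11 and 2, 1 and 1, and 9 and 4 there. Between doses it moved from 658 and 307 to 654 and 562 (vinblastine) and from 182 and 136 to 189 and 216 (vincristine) at 6 h, and from 444 and 177 to 526 and 310 (vinblastine) at 24 h. Between times it moved from 201 and 301 to 372 and 227, from 399 and 988 to 675 and 575 and from 713 and 1425 to 1130 and 1262 (vinblastine, vincristine and colchicine).

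The replicate numbers were not taken to pair the animals. Animals of the same number had a median correlation of deviations of 0.018 (521 pairs, 156 of them over 0.1). For other numbers it was -0.003 (2600 pairs, 636 of them over 0.1). A median over all pairs cannot decide whether some animals shared a litter or day. With a replicate block, vinblastine 3 mg/kg at 6 h kept 17 calls, and 0 of the 107 calls were lost. Each probe set in place of the brightest, also chosen after seeing the data, is given beside Cxcl3, Cxcl9, Cxcl12, Cxcr4, Cxcr5 and Ackr2. Dim signal limits the 10 genes without a reading.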
